A study of Mus musculus with 8 samples.

Results

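Expression of 10 genes of prostaglandin and leukotriene metabolism was examined in bone marrow-derived macrophages (BMDMs) of WT and Gsdmd-/- mice. They were found by symbol in a table of read counts that lists 54532 genes, and each of the 10 matched 1 row. BMDMs are obtained by culturing marrow from femur and tibia with M-CSF, the growth factor of macrophages. These had 6 days of culture and were left untreated. Gsdmd encodes gasdermin D, the protein that forms membrane pores in pyroptosis. There were 4 libraries per genotype. The study's methods describe female C57BL/6J mice of 6 to 8 weeks, bought from a supplier, as the source of WT cells. The Gsdmd-/- mice were a gift from another laboratory and were kept at the authors' university, and the way their allele was made is not described there. The methods do not say that the mice were littermates or that the libraries of a genotype stem from different mice. Genotype and colony therefore cannot be told apart, and the p-values measure only the spread between these libraries.

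Eicosanoids are short-lived lipid signals made from arachidonic acid. A phospholipase A2 frees this fatty acid from membranes, the cyclooxygenases turn it into prostaglandin H2, and terminal synthases make the individual prostaglandins from that. Alternatively 5-lipoxygenase, helped by its activating protein, makes leukotriene A4, which is turned into leukotriene B4 or, by addition of glutathione, into leukotriene C4. Macrophages make both families, and prostaglandin E2 acts back on them through receptors that raise cyclic AMP. In asthma, cysteinyl leukotrienes constrict the airways and prostaglandin D2 attracts cells of type 2 inflammation.

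Total counts were between 14935114 and 16794810 per library. CPM denotes counts relative to the library total after TMM scaling. For Gsdmd itself it averaged 75.3 ± 14.1 over the WT and 16.2 ± 1.56 over the Gsdmd-/- libraries (SD, n = 4 each), with a log2 ratio of -2.22. On the first principal component of log2 CPM, WT 2 scored 45.4 and WT 3 scored 38.8, while the other 6 libraries, WT 1 and WT 4 among them, lay between -25.9 and -7.19. Results are therefore also given without WT 2 and WT 3, a split chosen from these same data. All 10 macrophage markers listed were detected in every library, from 6.66 CPM for Fcgr1 in WT 3 to 20757 CPM for Lyz2 in Gsdmd-/- 3. Lists of other cell types held both absent and expressed genes. Ly6g and Retnlg of neutrophils, Cd3d and Ncr1 of lymphoid cells, and Mcpt4, Cma1 and Tph1 of mast cells had no count, whereas Mmp8 of the neutrophil list was at 545 to 940 CPM, Siglecf of the eosinophil list at 27.1 to 55.5 CPM and Kit of the mast cell list at 10.3 to 71.0 CPM. Of 33 markers tested over all lists, 7 had an unadjusted p under 0.05 in edgeR's test (Adgre1, Mcpt1, Mmp8, Siglecf, Clec9a, Itgax and Cdh5), all with lower values in Gsdmd-/- macrophages, against 12.0% of all genes in either direction and 7.30% lower.

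The regions before the start of the 2 cyclooxygenase genes and of Alox5 are shown first, since the cyclooxygenase genes were far apart in level and Alox5 had the largest spread in WT relative to Gsdmd-/- libraries among the 10 genes. The sequences are those of RefSeq for GRCm38.p6, from 250 bases before to 50 bases after the annotated start, on the strand of the gene. An entry was found for 9 of the 10 genes and none was used for Alox5ap. Capitals mark matches to the GC box (GGGCGG), the core of the cyclic AMP response element (TGACGT), the E box (CACGTG), the TATA box (TATAAA) or the CCAAT box, each read on both strands.
Ptgs1, chr2:36230176-36230475, plus strand: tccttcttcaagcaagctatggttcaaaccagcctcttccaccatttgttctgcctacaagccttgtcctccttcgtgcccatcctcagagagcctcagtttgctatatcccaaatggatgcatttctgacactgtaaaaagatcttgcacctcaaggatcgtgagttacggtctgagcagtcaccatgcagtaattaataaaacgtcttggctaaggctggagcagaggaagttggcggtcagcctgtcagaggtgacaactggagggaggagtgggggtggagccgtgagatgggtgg
Ptgs2, chr1:150099781-150100080, plus strand: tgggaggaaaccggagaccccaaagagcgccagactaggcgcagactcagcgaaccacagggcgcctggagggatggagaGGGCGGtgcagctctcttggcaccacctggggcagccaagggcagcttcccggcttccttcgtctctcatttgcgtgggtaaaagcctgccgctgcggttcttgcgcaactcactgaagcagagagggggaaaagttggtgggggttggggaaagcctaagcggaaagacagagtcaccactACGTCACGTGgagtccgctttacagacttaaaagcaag
Alox5, chr6:116461129-116461428, minus strand: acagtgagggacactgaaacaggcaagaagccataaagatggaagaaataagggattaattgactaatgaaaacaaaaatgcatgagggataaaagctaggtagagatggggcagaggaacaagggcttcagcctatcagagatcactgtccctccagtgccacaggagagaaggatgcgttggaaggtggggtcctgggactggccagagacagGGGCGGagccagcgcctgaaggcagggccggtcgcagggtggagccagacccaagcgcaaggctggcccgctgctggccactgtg
The Ptgs1 window held none of the 5 motifs. The Ptgs2 window held a GC box upstream of the annotated start. Past the annotated start it held a cyclic AMP response element core (on the minus strand) that shares 2 bases with an E box. Whether transcription begins at the annotated base was not examined, so these positions do not tell whether a motif is transcribed. The Alox5 window held a single GC box. Among 32851 windows of this length, 35.7% held a GC box, 7.51% the cyclic AMP response element core, 7.15% the E box, 13.6% the TATA box and 37.4% the CCAAT box.

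To compare levels between genes, CPM were divided by the length of all exons of a gene in GENCODE M21 (RPKM, per kilobase). In WT macrophages Alox5ap was highest at 80.5 ± 16.9 RPKM and Ptgs1 second at 33.6 ± 0.964 RPKM (SD, n = 4 each). Alox5 (8.87 ± 3.97 RPKM), Pla2g4a (8.33 ± 0.849 RPKM), Ptger4 (5.31 ± 1.10 RPKM), Hpgds (4.09 ± 1.07 RPKM), Ptger2 (3.04 ± 0.480 RPKM), Ltc4s (2.15 ± 0.973 RPKM) and Ptges (1.85 ± 0.732 RPKM) followed, and Ptgs2 was lowest at 0.233 ± 0.111 RPKM (SD, n = 4 each). The ranges over the 4 WT libraries overlapped between Alox5 and Pla2g4a and between each neighbouring pair from Ptger4 down to Ptges. They did not overlap between Alox5ap and Ptgs1, Ptgs1 and Alox5, Pla2g4a and Ptger4, or Ptges and Ptgs2. In Gsdmd-/- macrophages the order was the same but for Ptges and Ltc4s, which changed places with overlapping ranges. Exon length over all transcripts overstates the length of a gene whose long transcripts are rare, so these levels are approximate.

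**Figure D1:**
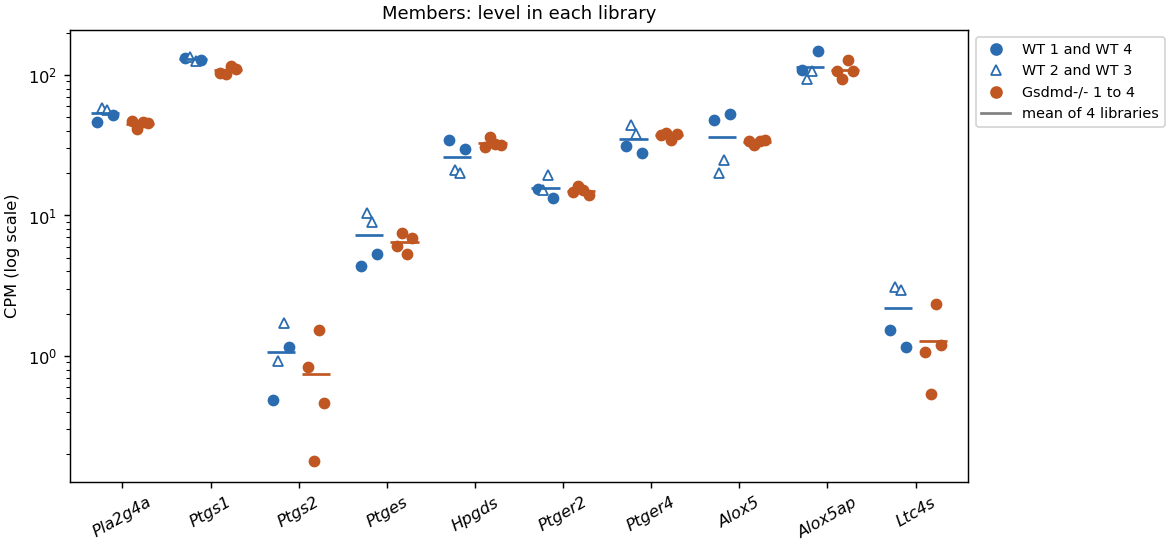
CPM (vertical axis, log scale) of the 10 genes in each of 4 WT (blue) and 4 Gsdmd-/- (orange) libraries, with bars for the means; open triangles are WT 2 and WT 3. The genotypes overlap for every gene but Ptgs1, whose WT libraries lie between 126 and 134 CPM and whose Gsdmd-/- libraries lie between 102 and 115 CPM.

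The 10 genes were compared between the genotypes in a fit over all 12911 genes with enough counts, which included all 10. With edgeR's quasi-likelihood test and Benjamini-Hochberg adjustment over all genes tested, none of the 10 had an adjusted p under 0.05, against 0.349% of all genes. The study's cutoff asks for an unadjusted p under 0.05 together with a log2 fold change of 0.5 or more in size, and it called none of the 10 either, against 4.83% of all genes. At an unadjusted p under 0.05 without a fold limit, 2 of the 10 passed, Ptgs1 and Pla2g4a, against 12.0% of all genes. Both were lower in Gsdmd-/- macrophages, as were 7.30% of all genes at that p. The libraries of the genotypes did not overlap for 1 of the 10, Ptgs1, against 7.60% of all genes in either direction. limma voom and the exact test of edgeR also gave no gene of the 10 with an adjusted p under 0.05, and DESeq2 gave 1, Ptgs1, where it called 2.26% of all genes. Of the 10 log2 fold changes, 8 were below 0, against 51.5% of all genes, with a median of -0.14 against -0.00685 for all genes tested. Without WT 2 and WT 3, Ptges (0.41) and Ptger2 (0.06) were above 0 as well, and no gene turned the other way.

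Ptgs1 encodes cyclooxygenase-1, the constitutive enzyme that makes prostaglandin H2. It lies on chromosome 2 from 36230426 to 36252272 (ENSMUSG00000047250, GRCm38). Its level was 133, 134, 126 and 128 CPM across WT 1 to 4, against 103, 102, 115 and 111 CPM across Gsdmd-/- 1 to 4. Every Gsdmd-/- library was below every WT library, and WT 2 and WT 3 did not stand apart from WT 1 and WT 4. It averaged 130 ± 3.74 CPM over the WT and 108 ± 6.46 CPM over the Gsdmd-/- libraries (SD, n = 4 each), or 82.6% of the WT level. The log2 fold change was -0.28 (standard error, SE, 0.0745, unadjusted p = 0.00392, adjusted p = 0.189 from edgeR's quasi-likelihood test). The exact permutation test over the 8 libraries gave p = 0.0286 (two-sided), the smallest that 4 against 4 allow. Of all genes tested, 4.12% were lower in Gsdmd-/- macrophages without overlap. Leaving out WT 2 and WT 3 gave -0.28 (adjusted p = 0.214). The adjusted p ran from 0.0154 with DESeq2 to 0.523 without Gsdmd-/- 1, and the unadjusted p was under 0.05 in all 17 alternatives. A GENCODE gene on the opposite strand, Gm43621, shares 148 of the 3884 exon bases of Ptgs1 and had 156 counts over the 8 libraries.

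Beside Ptgs1, the summed level of 8 dendritic cell markers was also lower without overlap, between 2228 and 2372 CPM in WT and between 1674 and 2099 CPM in Gsdmd-/- libraries. Nearly all of that sum came from Itgax, which macrophages also express. Of the 4 markers tested, Itgax (log2 fold change -0.25, unadjusted p = 0.024) and Clec9a (-0.95, unadjusted p = 0.0164) had an unadjusted p under 0.05 in edgeR's test. Clec9a was at 49.1 and 45.3 CPM in WT 2 and WT 3 and between 14.5 and 18.3 CPM in the other 6 libraries. Siglech had no count and Flt3 had 2 counts in all 8 libraries together. The part of this marker sum in the Ptgs1 difference was not tested. Over the 8 libraries, the genes whose log2 CPM followed Ptgs1 most closely among 9612 other genes with a mean of at least 5 CPM were Tmem186 (Pearson r = 0.978), Lbh (r = 0.974) and Bmt2 (r = 0.972), which is a description of libraries that share a genotype split.

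Ptgs2 (ENSMUSG00000032487, chr1:150100031-150108227) encodes cyclooxygenase-2, the inducible enzyme that stimulated macrophages switch on. It was almost silent in these untreated cells. The reads of Ptgs2 numbered 8, 15, 28 and 19 across WT 1 to 4, against 14, 3, 24 and 7 across Gsdmd-/- 1 to 4. Gsdmd-/- 2 had the fewest reads and WT 3 the most, and the genotypes overlapped. The log2 fold change was -0.51 (95% interval -1.76 to 0.73, adjusted p = 0.765 from edgeR), and the interval holds differences in either direction. It was -1.11 without Gsdmd-/- 3, -0.18 without Gsdmd-/- 2, -0.19 without WT 3 and -0.14 without WT 2 and WT 3. Per length, Ptgs1 was 87.0 to 321 times as high as Ptgs2 in single WT libraries and 89.2 to 677 times in single Gsdmd-/- libraries. The cyclic AMP response element core and E box shown above for Ptgs2 thus belong to a gene with 3 to 28 reads per library.

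Pla2g4a (ENSMUSG00000056220, chr1:149829618-149961290) encodes cytosolic phospholipase A2, which releases arachidonic acid for both branches of the pathway. Its level was 46.3, 58.2, 56.8 and 51.5 CPM across WT 1 to 4, against 46.8, 41.2, 46.3 and 45.2 CPM across Gsdmd-/- 1 to 4. Highest were WT 2 and WT 3, and only WT 1 lay within the Gsdmd-/- range. The log2 fold change was -0.25 (SE 0.0941, unadjusted p = 0.0255, adjusted p = 0.344 from edgeR), and the mean in Gsdmd-/- macrophages was 84.3% of that in WT. The 6 libraries other than WT 2 and WT 3 gave -0.13 (unadjusted p = 0.228, adjusted p = 0.680), and its unadjusted p was also above 0.05 when WT 2, WT 3 or Gsdmd-/- 2 alone was left out and with a block for the replicate number.

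**Figure D2:**
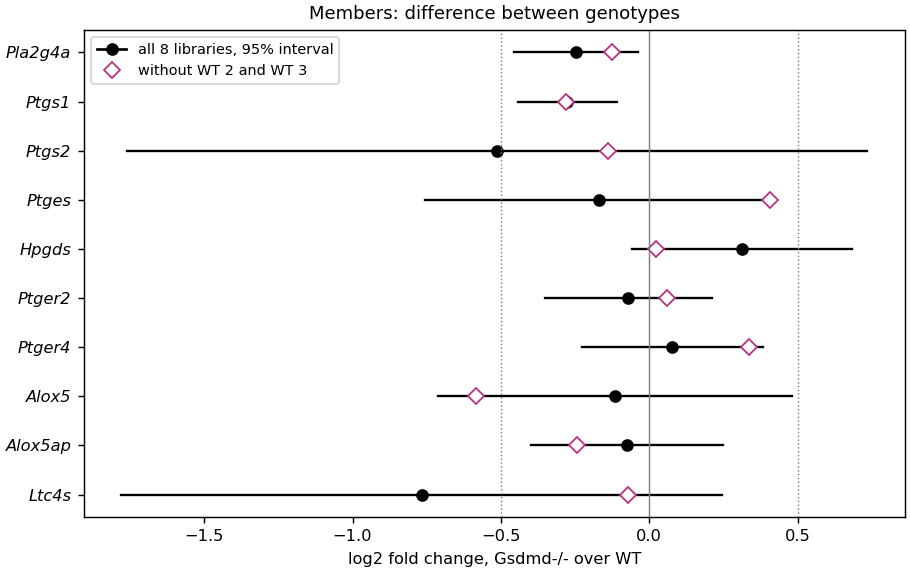
Log2 fold change of Gsdmd-/- over WT (horizontal axis) for the 10 genes, with the 95% interval from all 8 libraries (black) and the value without WT 2 and WT 3 (diamonds); dotted lines mark the fold cutoff of 0.5. With all libraries the intervals of Ptgs1 and Pla2g4a lie below 0, and without WT 2 and WT 3 the value of Alox5 moves from -0.12 to -0.58.

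The terminal prostaglandin synthases varied mainly among the WT libraries. Hpgds (ENSMUSG00000029919, chr6:65117293-65144908) encodes hematopoietic prostaglandin D synthase, which makes prostaglandin D2. Its level was 34.2, 21.02, 20.03 and 29.9 CPM across WT 1 to 4, against 30.7, 36.2, 32.0 and 31.6 CPM across Gsdmd-/- 1 to 4. Lowest were WT 2 and WT 3, and WT 1 and WT 4 lay close to the Gsdmd-/- values. Hpgds had a log2 fold change of 0.31 with all libraries (SE 0.167, adjusted p = 0.508 from edgeR) and 0.02 without WT 2 and WT 3 (adjusted p = 0.963).

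Ptges (ENSMUSG00000050737, chr2:30889471-30929863) encodes microsomal prostaglandin E synthase-1, which is usually induced together with cyclooxygenase-2 and makes prostaglandin E2. Its level was 4.38, 10.4, 8.92 and 5.36 CPM across WT 1 to 4, against 6.10, 7.45, 5.33 and 6.97 CPM across Gsdmd-/- 1 to 4. Here WT 2 and WT 3 were above every other library, whereas for Hpgds they were below. Ptges had a log2 fold change of -0.17 with all libraries (adjusted p = 0.841 from edgeR) and 0.41 without WT 2 and WT 3 (adjusted p = 0.405). Per length, the ratio of Ptges to Hpgds was 0.812 in WT 2 and 0.728 in WT 3, and between 0.209 and 0.361 in the other 6 libraries.

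Ptger2 (ENSMUSG00000037759, chr14:44988195-45003820) and Ptger4 (ENSMUSG00000039942, chr15:5206661-5244187) encode EP2 and EP4, the prostaglandin E2 receptors that raise cyclic AMP. Ptger2 was at 15.5, 15.1, 19.3 and 13.4 CPM across WT 1 to 4, against 14.6, 16.3, 15.2 and 14.1 CPM across Gsdmd-/- 1 to 4. The ranges overlapped, and the fitted ratio of Gsdmd-/- to WT was 0.952 with a 95% interval of 0.783 to 1.16 (adjusted p = 0.865 from edgeR). Ptger4 was at 31.1, 44.2, 38.1 and 27.8 CPM across WT 1 to 4, against 37.6, 38.7, 34.4 and 38.1 CPM across Gsdmd-/- 1 to 4. All Gsdmd-/- libraries lay within the range of the WT libraries, and the ratio was 1.05 with an interval of 0.854 to 1.304 (adjusted p = 0.865). For Ptger4 the log2 fold change was 0.34 without WT 2 and WT 3 (unadjusted p = 0.00971, adjusted p = 0.185), and for Ptger2 it was 0.06 (adjusted p = 0.910). With 1 library left out, that of Ptger4 ran from -0.02 (without WT 4) to 0.20 (without WT 2).

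Alox5 (ENSMUSG00000025701, chr6:116410077-116461178) encodes 5-lipoxygenase, the enzyme that starts leukotriene synthesis. Its level was 47.8, 20.1, 24.9 and 52.8 CPM across WT 1 to 4, against 33.9, 32.0, 34.0 and 34.6 CPM across Gsdmd-/- 1 to 4. The Gsdmd-/- libraries thus fell in a gap of the WT libraries, above WT 2 and WT 3 and below WT 1 and WT 4. It averaged 36.4 ± 16.3 CPM over the WT and 33.6 ± 1.12 CPM over the Gsdmd-/- libraries (SD, n = 4 each), and the highest library was 2.63 times the lowest in WT against 1.08 times in Gsdmd-/-. The SD of log2 CPM was 14.2 times as large in WT as in Gsdmd-/- libraries, where the median over 9613 genes with a mean of at least 5 CPM was 1.47. With all libraries the log2 fold change of Alox5 was -0.12 (SE 0.268, adjusted p = 0.900 from edgeR). Without WT 2 and WT 3 it was -0.58 (SE 0.0910, adjusted p = 0.0178 from edgeR), while leaving out WT 1 or WT 4 alone turned its sign. In the fit without WT 2 and WT 3, 161 genes (1.21%) had an adjusted p under 0.05, against 45 with all 8 libraries. WT 2 and WT 3 were set apart by values of these same data and were the lowest libraries for Alox5. Leaving them out had to lower the fold change and narrow the WT spread, so that adjusted p is no independent test of genotype.

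Alox5ap (ENSMUSG00000060063, chr5:149264767-149288153) encodes the 5-lipoxygenase-activating protein, which presents arachidonic acid to the enzyme. It was at 108, 92.9, 107 and 149 CPM across WT 1 to 4, against 106, 94.4, 127 and 107 CPM across Gsdmd-/- 1 to 4. WT 4 was the highest library and the genotypes overlapped, with a ratio of 0.950 and a 95% interval of 0.759 to 1.19 (adjusted p = 0.880 from edgeR). The log2 fold change of Alox5ap was -0.07 with all libraries, -0.24 without WT 2 and WT 3 (adjusted p = 0.553) and 0.08 without WT 4. Per length its level was 6.55 to 13.4 times that of Alox5 in single WT libraries and 8.53 to 10.8 times in single Gsdmd-/- libraries.

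Ltc4s (ENSMUSG00000020377, chr11:50236461-50238616) encodes leukotriene C4 synthase, which makes the first of the cysteinyl leukotrienes. The reads of Ltc4s numbered 25, 51, 48 and 19 across WT 1 to 4, against 18, 9, 37 and 18 across Gsdmd-/- 1 to 4. Highest were WT 2 and WT 3, and Gsdmd-/- 3 came next, so the genotypes overlapped. The log2 fold change was -0.77 with a 95% interval of -1.78 to 0.25 (adjusted p = 0.555 from edgeR), and it was -0.07 without WT 2 and WT 3 and -1.23 without Gsdmd-/- 3. An antisense gene, Gm26542, shares 268 of the 1014 exon bases of Ltc4s and had 24 counts over the 8 libraries. Genes on the opposite strand also share 189 of the 1420 exon bases of Alox5ap (Gm19719, 87 counts) and 82 of the 6648 exon bases of Ptger4 (Ttc33, 3700 counts). Gm15937 shares 1015 exon bases with Ptger4 and had 0 counts, and Gm49364 and Gm17173 share 144 and 246 of the 5193 exon bases of Ptger2 and had 2 and 10 counts. Whether counting used the strand is not given in the sources used here, so reads in these stretches could belong to either gene.

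**Figure D3:**
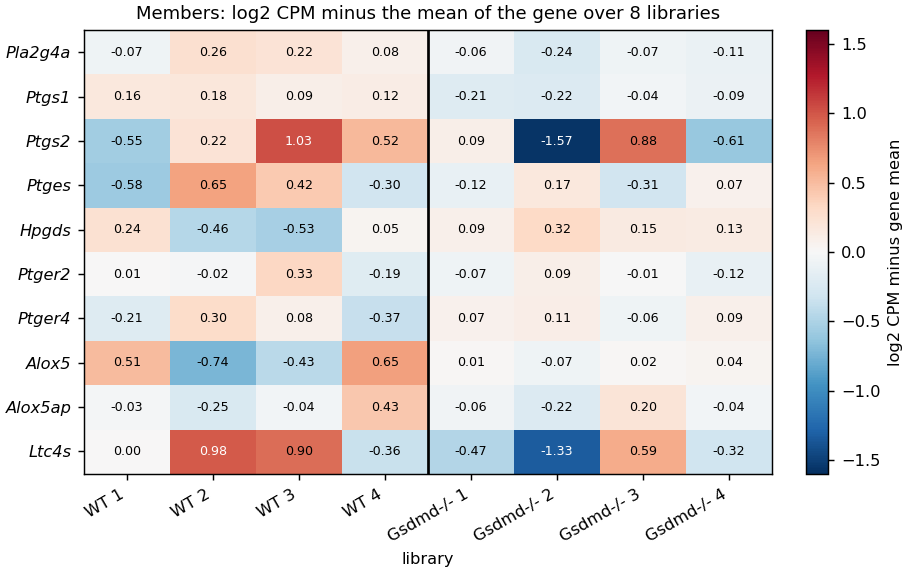
Log2 CPM of the 10 genes in each library minus the mean of the gene over the 8 libraries (color scale, red above and blue below the mean; columns are libraries, rows are genes). WT 2 and WT 3 are low for Alox5 and Hpgds and high for Ptges and Ltc4s, and the 4 WT libraries are above the Gsdmd-/- libraries for Ptgs1.

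WT 2 and WT 3 were the highest pair of libraries for 3 of the 10 genes (Pla2g4a, Ptges and Ltc4s) and the lowest pair for 2 (Hpgds and Alox5). Over all genes tested they were the highest pair for 17.9% and the lowest pair for 17.5%. The summed level of 12 mast cell and basophil markers was 18.6 and 20.5 CPM in WT 2 and WT 3 and between 55.7 and 82.3 CPM in the other 6 libraries, so it was lowest in the same libraries as Hpgds and Alox5, genes that mast cells also use. Ltc4s, which mast cells use as well, was highest in these libraries. Most of this sum was Kit, at 11.4 and 10.3 CPM in WT 2 and WT 3 and between 46.0 and 71.0 CPM elsewhere. The protease gene Mcpt1 went the other way, at 2.08 and 3.30 CPM in WT 2 and WT 3 and between 0.710 and 1.14 CPM elsewhere. Gata2, second to Kit in counts, was at 4.03 and 5.80 CPM in WT 2 and WT 3 and between 6.69 and 8.64 CPM elsewhere. Of the remaining 9 markers of this list, Hdc had 117 counts and Cpa3 had 93 in all 8 libraries together, without WT 2 and WT 3 as the lowest or highest pair, Ms4a2, Tpsb2, Fcer1a and Mcpt8 had 3 to 11, and Mcpt4, Cma1 and Tph1 had none. The 10 macrophage markers were also divided. WT 2 and WT 3 were the lowest pair for Cd68, Itgam, Fcgr1 and Lyz2 and the highest pair for Adgre1 and Mertk. Over all 33 markers tested, they were the highest pair for 9 and the lowest pair for 9. The part of these levels in the values of Hpgds and Alox5 was not tested. In bulk RNA, fewer cells of a type and less RNA per cell cannot be told apart.

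Beyond the 10, a list of other genes of eicosanoid metabolism was followed, of which 79 matched a single row and 54 had enough counts for a test. At the fold cutoff, 1 was higher (Acsl3) and 4 were lower (Hpgd, Slco2a1, Ggt5 and Ltb4r2) in Gsdmd-/- macrophages, against 1.54% and 3.28% of all genes. None had an adjusted p under 0.05 in edgeR's quasi-likelihood test, and 12 of the 54 had an unadjusted p under 0.05, against 12.0% of all genes. DESeq2 gave 3 with an adjusted p under 0.05 (Slco2a1, Hpgd and Fabp5), against 2.26% of all genes in that test, and the exact test of edgeR gave 2 (Slco2a1 and Fabp5), against 1.91%. None of the 5 genes was at the fold cutoff without WT 2 and WT 3. The median log2 fold change was -0.09, against -0.00685 for all genes, with 34 genes below and 20 above 0, where 51.5% of all genes were below 0. WT 2 and WT 3 were the highest pair of libraries for 21 of the 54 genes and the lowest pair for 10. Without them, more of the 54 genes were above 0 than below it.

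Hpgd encodes 15-hydroxyprostaglandin dehydrogenase, which inactivates prostaglandin E2, and Slco2a1 the transporter that carries prostaglandins into the cell for breakdown. Hpgd was at 19.8, 53.0, 51.7 and 22.8 CPM across WT 1 to 4, against 15.9, 12.9, 24.6 and 17.1 CPM across Gsdmd-/- 1 to 4. Slco2a1 was at 3.35, 8.74, 8.12 and 1.22 CPM across WT 1 to 4, against 2.31, 1.01, 1.33 and 0.929 CPM across Gsdmd-/- 1 to 4. For both, WT 2 and WT 3 were above all other libraries, and the rest overlapped. The log2 fold changes were -1.06 for Hpgd (SE 0.335, adjusted p = 0.260 from edgeR) and -1.93 for Slco2a1 (SE 0.559, adjusted p = 0.221). The adjusted p of Slco2a1 was 0.0187 with DESeq2, 0.0416 with the exact test of edgeR and 0.0412 without WT 4, and that of Hpgd was 0.0454 with DESeq2 and 0.0802 with the exact test. Without WT 2 and WT 3 the log2 fold changes were -0.28 for Hpgd (adjusted p = 0.683) and -0.71 for Slco2a1 (adjusted p = 0.617). Neither was at the cutoff, Hpgd by its fold and Slco2a1 by its unadjusted p of 0.169 from edgeR. The other 6 tested genes of transport and breakdown were not at the cutoff.

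On the leukotriene side, Ggt5, a gamma-glutamyl transferase that trims leukotriene C4 to leukotriene D4, had 84 counts over the WT and 33 over the Gsdmd-/- libraries (log2 fold change -1.31, adjusted p = 0.248 from edgeR). Ltb4r2, a low-affinity receptor for leukotriene B4, had 86 and 47 counts (log2 fold change -0.85, adjusted p = 0.390). For both genes the genotypes overlapped, and at these counts 1 library could move the value. Without Gsdmd-/- 3 the log2 fold change of Ggt5 was -1.63, and without WT 4 that of Ltb4r2 was -0.56 (unadjusted p = 0.148). The unadjusted p of Ltb4r2 was under 0.05 in 8 of 16 alternatives. It was above that, among others, with DESeq2 (0.0505), without WT 2 and WT 3 (0.0503) and without Gsdmd-/- 3 (0.106). Leaving out WT 2 and WT 3 did not shrink the log2 fold change of Ltb4r2, which became larger in size. Its SE was 0.446 without them and 0.362 with all libraries. The unadjusted p of Ggt5 was 0.135 without WT 2 and WT 3. Lta4h, which makes leukotriene B4 from leukotriene A4, averaged 120 ± 11.3 CPM over the WT and 116 ± 9.33 CPM over the Gsdmd-/- libraries (SD, n = 4 each), a ratio of 0.970 with a 95% interval of 0.838 to 1.12. Without WT 2 and WT 3, its highest libraries, the log2 fold change was 0.06 against -0.04 with all libraries.

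Acsl3, an acyl-CoA synthetase that activates long-chain fatty acids including arachidonic acid, was higher without overlap. It was at 9.62, 7.52, 6.78 and 8.15 CPM across WT 1 to 4, against 11.1, 9.94, 11.7 and 12.6 CPM across Gsdmd-/- 1 to 4. The log2 fold change of Acsl3 was 0.50 (SE 0.140, adjusted p = 0.210 from edgeR), just at the limit of the cutoff, and 3.48% of all genes tested were higher without overlap. It was 0.35 without WT 2 and WT 3 (adjusted p = 0.355).

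**Figure D4:**
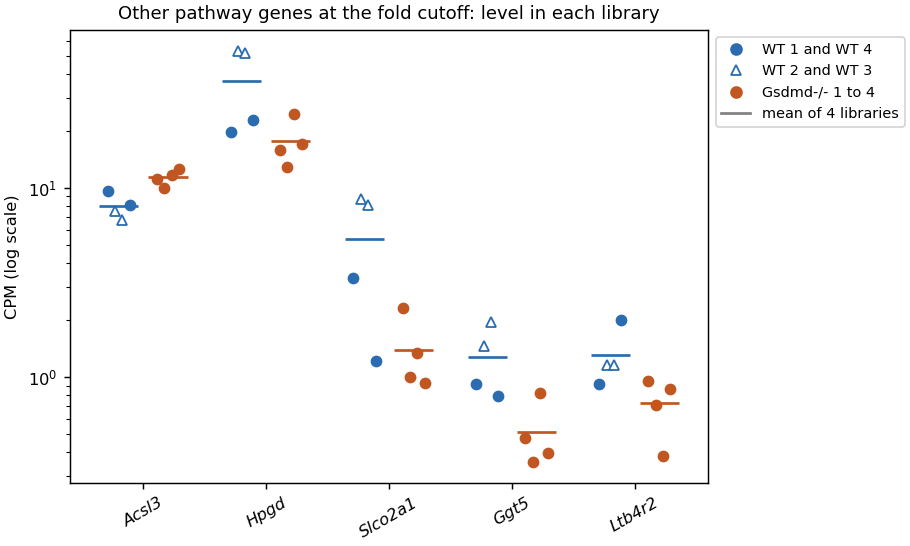
CPM (vertical axis, log scale) of the 5 other pathway genes at the fold cutoff in each WT (blue) and Gsdmd-/- (orange) library, with bars for the means; open triangles are WT 2 and WT 3. WT 2 and WT 3 lie above all other libraries for Hpgd, Slco2a1 and Ggt5, and for Acsl3 all Gsdmd-/- libraries lie above all WT libraries.

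By role, none of the 7 tested prostaglandin and thromboxane synthases outside the 10 genes was at the cutoff or had an unadjusted p under 0.05 in edgeR's test. Among them, the thromboxane synthase gene Tbxas1 averaged 245 ± 46.0 CPM over the WT and 233 ± 1.97 CPM over the Gsdmd-/- libraries (SD, n = 4 each), a ratio of 0.949 with a 95% interval of 0.785 to 1.15. It was highest in WT 2 and WT 3, at 285 CPM in each, and its log2 fold change was -0.08 with all libraries and 0.18 without these (adjusted p = 0.417). Of 7 other prostanoid receptors listed, 3 were tested and none was at the cutoff. Among these, Ptgir, the prostacyclin receptor, averaged 251 ± 52.9 CPM over the WT and 210 ± 22.3 CPM over the Gsdmd-/- libraries (SD, n = 4 each, adjusted p = 0.543 from edgeR). The higher WT mean came from WT 2 and WT 3, at 299 and 293 CPM, while WT 1 and WT 4, at 214 and 197 CPM, lay within the Gsdmd-/- range of 186 to 234 CPM, and without WT 2 and WT 3 the log2 fold change was 0.03 (adjusted p = 0.956). The prostaglandin D2 receptor genes Ptgdr and Ptgdr2 had 0 and 21 counts over all libraries. None of the 6 other lipoxygenase genes had enough counts for a test, among them Alox15, with 18 counts over the WT and 10 over the Gsdmd-/- libraries. Lta4h, Tbxas1, Ptgir, Ptgdr, Ptgdr2 and Alox15 were named after their values had been seen.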

How the data were processed

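RNA of WT and Gsdmd-/- bone marrow-derived macrophages was sequenced in 4 libraries per genotype. Total RNA was taken up in TRIzol and made into TruSeq libraries, and a company did the sequencing. The authors deposited read counts per gene, not normalized, which were checked to be whole numbers. The submitters' processing notes name the build mm10. The aligner, the counting tool and the annotation are not given in the sources used here. Positions and exon lengths were taken from GENCODE M21 (GRCm38), which held 54495 of the 54532 genes.

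Genes with low counts were removed with filterByExpr and libraries were scaled by TMM in edgeR 4.0.16 (R 4.3.3). Genotypes were compared over 12911 genes by a two-sided quasi-likelihood test, fitted on genotype alone, with Benjamini-Hochberg adjustment over all genes tested. The study's methods name limma and its cutoff edgeR, so limma voom (limma 3.58.1) was an alternative. The standard error was taken as the log2 fold change over the square root of F. TMM factors entered the CPM, and a prior count of 2 was added before taking log2. A count of 0 allows up to 3 counts, between 0.177 and 0.199 CPM, and such limits and the intervals of counts cover counting error only. The test was tried on simulated counts with 200 genes changed, and no result given here rests on that trial. No sample was left out of the main comparison.

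All 10 genes were named, with other pathway genes at the fold cutoff or with an adjusted p under 0.05, Gsdmd, and the 3 genes that correlated best with the member of lowest p. The members and lists were chosen with earlier results of these data known. Dpep2 had more than 1 row and was not used. Alternatives were RLE and upper-quartile scaling, no filter, a filter of 10 counts in each library, limma voom, DESeq2 1.42.0, edgeR's exact test, a block for the replicate number, each library left out, WT 2 and WT 3 left out together, and a stricter fold or looser adjusted p.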

Additional observations from a re-analysis of the deposited data

How the results depend on the processing

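For the 10 genes, the count at the fold cutoff was 0 higher in all alternatives and 0 lower with all 8 libraries. It was 0 to 1 lower with 1 library left out (Ltc4s, without Gsdmd-/- 3) and 1 lower without WT 2 and WT 3 (Alox5). The count with an adjusted p under 0.05 was 1 with DESeq2 (Ptgs1) and 1 without WT 2 and WT 3 (Alox5). Signs of the log2 fold change turned for 5 of the 10. With 1 library left out, Ptges ran from -0.351 to 0.0503 (above 0 without WT 2), Ptger2 from -0.14 to 0.0393 (above 0 without WT 3), Ptger4 from -0.0196 to 0.198 (below 0 without WT 4), Alox5 from -0.32 to 0.122 (above 0 without WT 1 or WT 4) and Alox5ap from -0.165 to 0.0807 (above 0 without WT 4). Without WT 2 and WT 3, Ptges was at 0.406 and Ptger2 at 0.058, and Alox5 was at 0.0019 with limma voom. The cause was not tested.

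Of the other pathway genes, 0 were higher at the cutoff with RLE, with at least 10 counts in every library, with DESeq2 or at a log2 fold change of at least 1, 2 without WT 2 and WT 3, 3 without a filter, and 0 to 3 with 1 library left out, the highest without WT 4 and 0 without WT 2, WT 3, Gsdmd-/- 3 or Gsdmd-/- 4. There were 7 lower without a filter and 4 to 9 with 1 library left out, the highest without WT 1. Without WT 2 and WT 3 the 2 higher genes were Plaat3 and Cyp2j9, and the 3 lower genes were Cmklr1, Lpcat2 and Ltb4r1. With an adjusted p under 0.05 there were 2 in the exact test of edgeR, 3 with DESeq2, 1 without WT 2 and WT 3 (Ltb4r1), and 0 to 1 with 1 library left out, the highest without WT 4. The log2 fold change of Ltb4r1, a leukotriene receptor, was -1.42 without WT 2 and WT 3, its lowest libraries (adjusted p = 0.0263 from edgeR). With all libraries it was -0.70 (adjusted p = 0.630).

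Over all genes, the 199 higher and 424 lower genes became 421 and 783 without a filter, 59 and 140 at a log2 fold change of at least 1, and 155 to 318 and 297 to 704 with 1 library left out, the highest without WT 4 in each case. Without WT 2 and WT 3, 405 were higher and 418 lower, so the lower calls no longer outnumbered the higher ones by over 1.5 times. The 45 genes with an adjusted p under 0.05 became 109 without a filter, 246 in the exact test of edgeR, 292 with DESeq2, 161 without WT 2 and WT 3, 98 at an adjusted p under 0.1, and 14 to 84 with 1 library left out, the lowest without WT 3, Gsdmd-/- 1, Gsdmd-/- 2 or Gsdmd-/- 3 and the highest without WT 4.

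The sample labels do not pair same-numbered WT and Gsdmd-/- libraries. The correlations of their deviations were 0.027, 0.182, 0.041 and -0.201, where differently numbered pairs ran from -0.253 to 0.333. Such values cannot tell whether same-numbered libraries shared a batch. With a replicate block, 25 genes had an adjusted p under 0.05 and the count for the 10 genes was 0. Ptgs2 and Ltc4s had too few counts for the filter of at least 10 in every library, and their intervals were the widest of the 10.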

Other observations

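The following genes of arachidonic acid and prostaglandin handling were chosen after their values were seen. Fabp5, a fatty acid-binding protein, averaged 1170 ± 106 CPM over the WT and 1560 ± 117 CPM over the Gsdmd-/- libraries (SD, n = 4 each), higher in 4 of 4 libraries without overlap (log2 fold change 0.42, unadjusted p = 0.00147, adjusted p = 0.124 from edgeR). Its lowest libraries were WT 2 and WT 3, and without them the log2 fold change was 0.31 (adjusted p = 0.196). Acsl1, an acyl-CoA synthetase, was also higher without overlap, with a log2 fold change of 0.21 (adjusted p = 0.293), and 0.16 without WT 2 and WT 3, its lowest libraries (adjusted p = 0.512). Dagla, which makes the endocannabinoid 2-arachidonoylglycerol, was lower without overlap (20.5 ± 4.26 and 14.5 ± 2.45 CPM, SD, n = 4 each, adjusted p = 0.303 from edgeR). Its highest libraries were WT 2 and WT 3, at 25.4 and 22.6 CPM, and the log2 fold change was -0.50 with and -0.23 without them (unadjusted p = 0.192). Ptgr3, a prostaglandin reductase, was lower without overlap as well (log2 fold change -0.19, adjusted p = 0.346; -0.22 without WT 2 and WT 3). With Acsl3, these were the 5 of 54 other pathway genes tested whose libraries did not overlap, against 7.60% of all genes.

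WT 2 and WT 3 were the highest pair of libraries for 21 and the lowest pair for 10 of the 54 other pathway genes tested (38.9% and 18.5%), against 17.9% and 17.5% of all genes tested.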
